A study of Mus musculus with 12 samples.

Results

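Oligodendrocyte precursor genes were followed across 12 RNA-seq libraries of the mouse lateral habenula. The members, Olig1, Olig2, Sox10, Pdgfra, Cspg4, Cspg5 and Gpr17, are known precursor genes given by name, a choice made with earlier results of these data known, and all 7 were found by Ensembl identifier among the 17416 genes of the table. All 7 also passed the filter on low values, which left 17111 genes. The libraries came from C57BL/6 mice that were 9 weeks old: 4 stress-susceptible mice, 4 stress-resilient mice and 4 non-defeated mice. Lateral habenula tissue was punched under a microscope from 500 µm slices, and 100 pg of RNA entered each library. A series title on proprotein convertase, depressive-like behaviour and extracellular matrix frames the study, in which transcripts of the habenula were compared between mice that did and did not become susceptible to stress. In the deposited social avoidance test the interaction ratio was 0.13 to 0.69 in susceptible, 1.08 to 2.24 in resilient and 1.12 to 1.84 in non-defeated mice (n = 4 each).

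Each sample title also carries a letter, H or N, whose meaning the labels do not give. Susceptible replicates 3 and 4 and all 4 resilient libraries carry N, and susceptible replicates 1 and 2 and all 4 non-defeated libraries carry H. The susceptible group is therefore the one that holds both letters. Between resilient and non-defeated mice, group and letter cannot be told apart. Where a fit holds the letter as a term, the letter difference comes from susceptible libraries alone and is assumed equal in all groups. The behaviour sheet lists 1 mouse for each library, though the labels do not say that libraries come from separate mice, and p-values measure the spread between libraries, which may be partly technical.

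Oligodendrocyte precursors are dividing glia, spread through the adult brain, that give rise to myelinating oligodendrocytes. Platelet-derived growth factor acting on the receptor Pdgfra keeps them dividing, the transcription factors Olig1, Olig2 and Sox10 hold the lineage identity, and Gpr17 marks cells already committed to differentiate. Cspg4 (NG2) and Cspg5 (neuroglycan C) are chondroitin sulphate proteoglycans of the cell surface and pericellular matrix. None of the 7 is confined to precursors: Olig1, Olig2 and Sox10 persist in mature oligodendrocytes, Pdgfra is also made by perivascular fibroblasts, Cspg4 by pericytes and other mural cells, and Cspg5 by neurons and astrocytes. In punches of bulk tissue, fewer cells of a type and less RNA per cell cannot be told apart.

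Depth ran from 33.3 M to 47.7 M reads per library (M, 1000000 reads), and the 7 genes drew from 34 reads, for Cspg4 in susceptible replicate 1, to 21116 reads, for Olig1 in non-defeated replicate 1. Levels are CPM (reads per 1000000 reads) after trimmed-mean (TMM) scaling. Fold changes were taken on log2(CPM + 1), so those of scarce genes are understated. Correlation with the other libraries averaged 0.932 to 0.935 for non-defeated replicates 3 and 4 and resilient replicate 4 and 0.940 to 0.953 for the other 9, and values without these 3 are given beside the results of each member. Of 141 entries in 16 marker and pathway lists, limma called 0 at an adjusted p under 0.05 in each of the 6 comparisons, and 4 to 15 had an unadjusted p under 0.05.

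Compared per length of exon, the 7 genes spanned more than 2 orders of magnitude. Olig1 averaged 161 ± 50.3 RPKM over all 12 libraries, Sox10 29.8 ± 6.06, Cspg5 21.8 ± 11.3, Olig2 8.01 ± 8.41, Gpr17 5.91 ± 1.52, Pdgfra 2.38 ± 0.86 and Cspg4 0.57 ± 0.617 (RPKM, SD, n = 12). Among neighbours in this order, the ranges of mean ± SD overlapped between Sox10 and Cspg5, between Cspg5 and Olig2 and between Olig2 and Gpr17, and not between the others. Spread between libraries also differed between the genes. The coefficient of variation of CPM was 20.3% for Sox10, 25.7% for Gpr17, 31.2% for Olig1 and 36.1% for Pdgfra, against 52% for Cspg5, 105% for Olig2 and 108% for Cspg4.

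**Figure D1:**
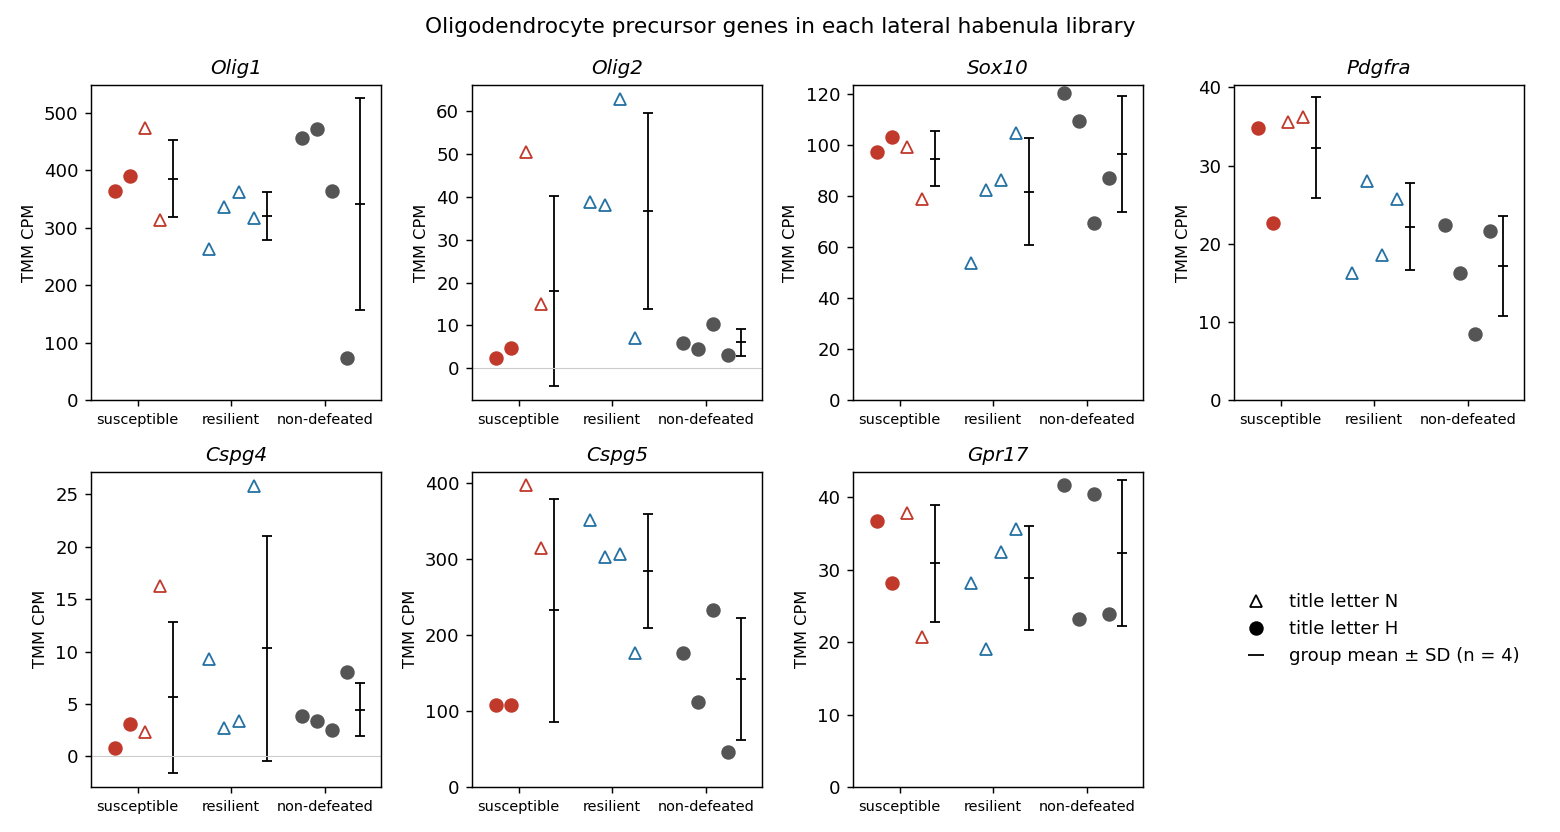
Level of each gene in every library (TMM CPM, linear axis), by group from left to right susceptible, resilient and non-defeated. Open triangles are libraries with title letter N, filled circles those with H, and the bar beside each group is the mean ± SD (n = 4). Pdgfra is above every non-defeated library in all 4 susceptible libraries, from 22.6 CPM upward. Within the susceptible group Olig2 and Cspg5 separate by title letter. Pdgfra does so there by little, from 34.8 CPM at most in H to 35.6 CPM at least in N.

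Pdgfra, the receptor that makes precursors respond to platelet-derived growth factor, was the member whose levels separated susceptible from non-defeated mice. The gene (ENSMUSG00000029231) spans chromosome 5, 75152292 to 75198215 of GRCm38, on the + strand. Its levels were 34.8, 22.6, 35.6 and 36.2 CPM in susceptible replicates 1 to 4, 16.3, 28.0, 18.6 and 25.7 CPM in resilient replicates 1 to 4, and 22.4, 16.2, 8.5 and 21.6 CPM in non-defeated replicates 1 to 4. All 4 susceptible libraries lay above all 4 non-defeated ones, though susceptible replicate 2 at 22.6 CPM cleared non-defeated replicate 1 at 22.4 CPM by little, and resilient libraries overlapped both. Pdgfra averaged 32.3 ± 6.49 CPM in susceptible, 22.2 ± 5.60 CPM in resilient and 17.2 ± 6.39 CPM in non-defeated mice (SD, n = 4 each). The log2 fold change of susceptible over non-defeated mice was 0.93 ± 0.31 (SE), with an unadjusted p of 0.0092 and an adjusted p of 0.998 by limma with Benjamini-Hochberg adjustment over all 17111 genes, so the gene did not pass. It ran from 0.65 to 1.09 when each library was left out in turn and was 0.71 ± 0.31 without the 3 libraries of lowest correlation. In resilient over non-defeated mice it was 0.40 ± 0.31, and 0.10 ± 0.32 without those 3.

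Among the 7 genes, Pdgfra alone had groups that did not overlap between susceptible and non-defeated mice, and 1.11% of all tested genes were higher in this way. None of the 7 was lower without overlap, as 1.11% of all genes were. At an adjusted p under 0.05, limma called 0 of the 7 and 0% of all genes. The quasi-likelihood test of edgeR called 0 genes and DESeq2 23, none of them a member. By limma, 606 of the 17111 genes had an unadjusted p under 0.05. Within a letter the direction of Pdgfra was the same. In the H libraries this was fixed in advance, since all 4 non-defeated libraries carry H. With the full groups apart, Pdgfra there could neither overlap nor change direction. In the H libraries it averaged 28.7 ± 8.61 CPM in susceptible (n = 2) and 17.2 ± 6.39 CPM in non-defeated mice (n = 4), a log2 fold change of 0.76 ± 0.39 with a limma adjusted p of 1. In the N libraries it averaged 35.9 ± 0.486 CPM in susceptible (n = 2) and 22.2 ± 5.60 CPM in resilient mice (n = 4), a log2 fold change of 0.70 ± 0.39 with a limma adjusted p of 1. Pdgfra was the 1 member of 7 without overlap in each of these within-letter comparisons, where 5.39% of all genes in the H libraries and 5.51% in the N libraries were higher in susceptible mice without overlap and 4.73% and 5.92% were lower. At an adjusted p under 0.05, limma called 0 of the 7 members in both. It called 0% of all genes in the H libraries and 0.0526% in the N libraries. In the H libraries edgeR called 0 and DESeq2 57, and 537 of the 17111 genes had an unadjusted p under 0.05 by limma.

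The platelet-derived growth factor genes did not pass adjustment by limma in any comparison. All 4 were tested, and 3 had a positive log2 fold change in susceptible over non-defeated mice, where 52.1% of all genes did. The values were 0.10 for Pdgfa, 0.51 for Pdgfb, 0.28 for Pdgfd and -0.63 for Pdgfc. Pdgfa, the form that binds Pdgfra in precursors, averaged 65.3 ± 12.5 CPM in susceptible, 57.8 ± 15.4 CPM in resilient and 60.2 ± 7.82 CPM in non-defeated mice (SD, n = 4 each). Pdgfc averaged 6.83 ± 4.84 CPM in susceptible, 5.64 ± 1.64 CPM in resilient and 10.1 ± 4.0 CPM in non-defeated mice.

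Perivascular fibroblasts are another source of Pdgfra, and 6 of 6 fibroblast markers were measured. Their summed level ran from 22.1 to 43.1 CPM in susceptible, 27.1 to 76.2 CPM in resilient and 27.3 to 71.9 CPM in non-defeated mice. Single markers pointed different ways in susceptible over non-defeated mice. Col3a1, a fibrillar collagen chain, had a log2 fold change of 1.41 ± 0.54 with a limma adjusted p of 0.998 and averaged 2.53 ± 2.03 CPM in susceptible and 0.208 ± 0.361 CPM in non-defeated mice. For Col1a2, a chain of type I collagen, the log2 fold change was -0.98 ± 0.54 and for the proteoglycan Dcn it was -0.67 ± 0.45. Lum and Col3a1 had 0 reads in at least 1 library. The part of fibroblasts in the Pdgfra values was not tested.

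The bases just before the annotated starts of Pdgfra and Olig2 are shown because these genes carry the clearest group pattern and the clearest letter pattern. They are from RefSeq on GRCm38.p6, + strand, at chr5:75152001-75152250 for Pdgfra and chr16:91225300-91225456 for Olig2. CG dinucleotides are in capitals.
Pdgfra: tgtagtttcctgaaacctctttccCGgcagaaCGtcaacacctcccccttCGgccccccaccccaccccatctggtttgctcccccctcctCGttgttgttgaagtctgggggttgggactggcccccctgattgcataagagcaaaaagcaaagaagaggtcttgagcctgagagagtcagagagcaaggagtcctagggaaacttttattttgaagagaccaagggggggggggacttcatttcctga
Olig2: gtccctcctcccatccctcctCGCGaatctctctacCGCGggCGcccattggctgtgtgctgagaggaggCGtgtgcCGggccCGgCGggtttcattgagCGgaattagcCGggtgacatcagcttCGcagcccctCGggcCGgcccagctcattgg
The median window before a mouse gene start holds 6 CG dinucleotides, more than the Pdgfra window and fewer than the Olig2 window. The printed Olig2 stretch ends just before the GENCODE start, 157 bases in all, and holds 14 CG dinucleotides. Over the full 250 bases before the RefSeq start, Pdgfra had 4 CG dinucleotides and a GC content of 54.4%, and Olig2 22 and 66.8%. Fewer CG dinucleotides than these were found in 37.8% of all 32817 windows of that length for Pdgfra and in 85.2% for Olig2. The E-box word CANNTG, which reads as itself on both strands and is the class of word that Olig factors bind, occurred once before Pdgfra, 182 bases upstream of the start, and not in the Olig2 window. It was present in 66.2% of all windows.

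Olig2, a basic helix-loop-helix factor required to specify the lineage, followed the title letter. Levels were 2.4 and 4.8 CPM in susceptible replicates 1 and 2 (H) and 50.4 and 14.9 CPM in susceptible replicates 3 and 4 (N). Resilient replicates 1 to 4 (N) held 38.9, 38.1, 62.8 and 7.0 CPM, and non-defeated replicates 1 to 4 (H) held 6.0, 4.5, 10.3 and 3.2 CPM. Both susceptible N libraries exceeded both susceptible H libraries, and across groups the letters overlapped only through resilient replicate 4 and non-defeated replicate 3. Over all libraries Olig2 averaged 35.3 ± 21.1 CPM under N and 5.20 ± 2.81 CPM under H (SD, n = 6 each). All resilient libraries are among the N and all non-defeated ones among the H, so these means mix group with letter.

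Within the susceptible group, Olig2 averaged 32.6 ± 25.1 CPM in N and 3.58 ± 1.66 CPM in H libraries (SD, n = 2 each). The log2 fold change of N over H was 2.69 ± 0.84 with an unadjusted p of 0.0069 and a limma adjusted p of 0.655. DESeq2 on the recovered reads called it, at a log2 fold change of 3.19 ± 0.84 and an adjusted p of 0.0179, and edgeR's quasi-likelihood test did not, with an adjusted p of 0.637. Over the alternatives tried the adjusted p ran from 0.0179 to 1. Between resilient and non-defeated mice Olig2 averaged 36.7 ± 22.9 CPM and 6.02 ± 3.09 CPM, a log2 fold change of 2.19 ± 0.77 with a limma adjusted p of 0.567. With the letter as a term in the fit this log2 fold change was -0.50 ± 1.03. That value rests on the letter difference of the susceptible libraries and does not separate group from letter. Without the 3 libraries of lowest correlation the log2 fold change was 2.89 ± 0.87 with a limma adjusted p of 0.253. These 3 include resilient replicate 4 and non-defeated replicate 3, through which the letters overlapped. Where letters matched, susceptible over non-defeated mice gave -0.57 ± 0.73 in the H libraries and susceptible over resilient mice gave -0.06 ± 0.73 in the N libraries, the last being -0.69 ± 0.50 without the 3 libraries. In the authors' deposited table, a test over the 3 groups gave Olig2 a p of 0.001673 and an FDR of 0.2111, Pdgfra an FDR of 0.872 and Cspg5 an FDR of 1.

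Cspg5, a proteoglycan with an EGF-like domain that neurons and astrocytes also carry, had the same arrangement. The gene (ENSMUSG00000032482) spans chromosome 9, 110243783 to 110262576, on the + strand. Levels were 107.9 and 107.5 CPM in susceptible replicates 1 and 2 (H) and 397.0 and 314.7 CPM in susceptible replicates 3 and 4 (N). Resilient replicates 1 to 4 (N) held 351.2, 301.7, 306.2 and 175.7 CPM, and non-defeated replicates 1 to 4 (H) held 176.4, 112.1, 232.7 and 46.3 CPM. All N libraries but 1 lay above every H library, and that 1, resilient replicate 4, lay among the H libraries. Within the susceptible group the log2 fold change of N over H was 1.70 ± 0.55 with an unadjusted p of 0.0087 and a limma adjusted p of 0.700. The 3 libraries of lowest correlation held the lowest N and the highest and lowest H values of Cspg5. Without them the susceptible libraries are the same but the estimated spread is smaller, as leaving out those values makes it. The limma adjusted p of N over H was then 0.00709, at a log2 fold change of 1.71 ± 0.22. Over the alternatives tried the adjusted p of this difference ran from 0.0071 to 1. Between resilient and non-defeated mice Cspg5 averaged 284 ± 75.4 CPM and 142 ± 80.5 CPM (SD, n = 4 each), a log2 fold change of 1.18 ± 0.50 with a limma adjusted p of 0.645, -0.53 ± 0.68 with the letter as a term and 1.17 ± 0.50 without the 3 libraries.

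Neurons and astrocytes also make Cspg5, and all 7 neuron and 11 astrocyte markers were measured. Neuron markers summed to 5021 to 5472 CPM in susceptible, 4544 to 5982 CPM in resilient and 4651 to 5759 CPM in non-defeated mice, and astrocyte markers to 3753 to 4831 CPM in susceptible, 3410 to 4597 CPM in resilient and 2944 to 5161 CPM in non-defeated mice. Markers of the medial habenula, which borders the punched nucleus, summed to 196 to 307 CPM in susceptible, 154 to 278 CPM in resilient and 218 to 728 CPM in non-defeated mice. Of these 9 genes, 7 had a negative log2 fold change in resilient over non-defeated mice, with a median of -1.25 against 0.02 over all genes, and 4 had an unadjusted p under 0.05 by limma while 0 passed adjustment. Tac2, a tachykinin of medial habenula neurons, had a log2 fold change of -1.89 ± 0.48 there with a limma adjusted p of 0.390. Within the susceptible group, neuron markers summed to 5021 to 5278 CPM in N and 5385 to 5472 CPM in H libraries. Astrocyte markers there summed to 3753 to 4658 CPM in N and 4110 to 4831 CPM in H libraries. For medial habenula markers the sums were 196 to 307 CPM in N and 254 to 307 CPM in H libraries. The part of these cells in the Cspg5 and Olig2 values was not tested.

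Of the 7 genes, 3 were higher without overlap in the susceptible N libraries than in the susceptible H libraries, Olig2, Cspg5 and Pdgfra, and 16.3% of all genes were higher in this way and 15.9% lower. With 2 libraries against 2 such separation is common. At an adjusted p under 0.05, limma called 0 of the 7 members and 0% of all genes here. The quasi-likelihood test of edgeR called 0 genes and DESeq2 called 193. By limma, 823 of the 17111 genes had an unadjusted p under 0.05. Between resilient and non-defeated mice, limma called 0 of 7 members and 0.00584% of all genes, and 0 members had groups that did not overlap, where 1.98% of all genes were higher and 1.68% lower without overlap. Between susceptible and resilient mice, limma called 0 of 7 members and 0.0468% of all genes, and 0 members had groups that did not overlap, where 1.42% were higher and 1.03% lower.

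**Figure D2:**
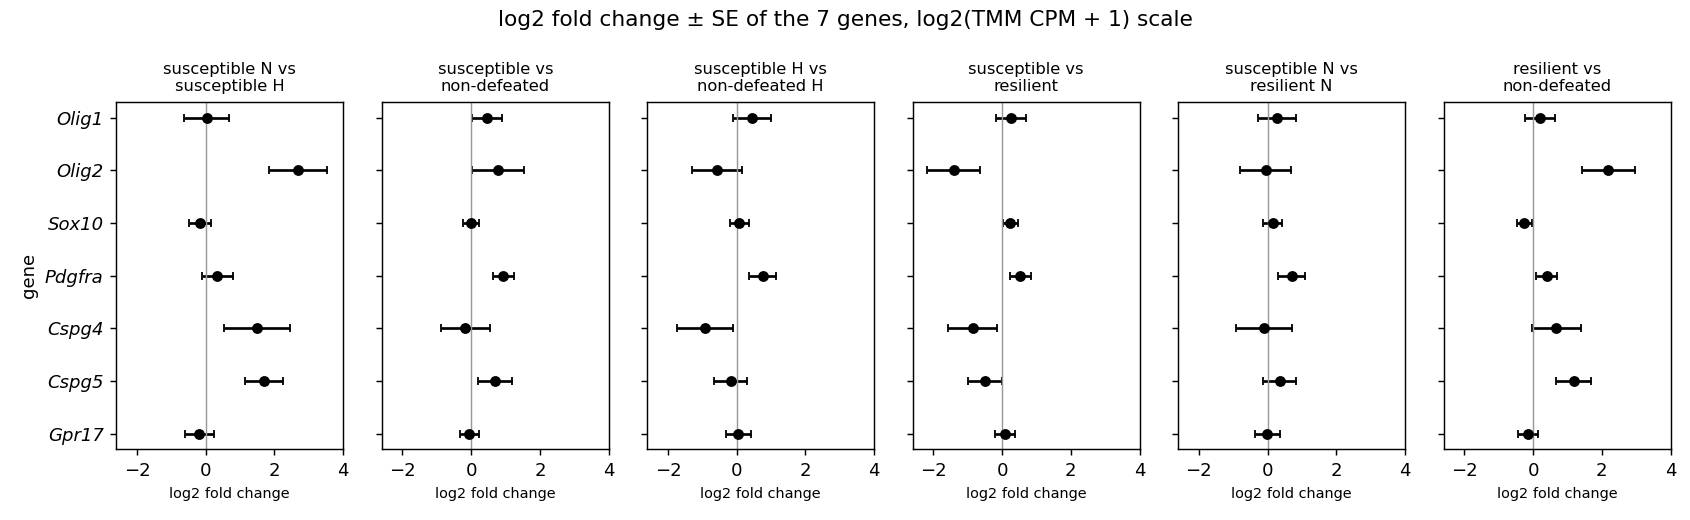
Log2 fold change ± SE of the 7 genes (x axis, log2(TMM CPM + 1) scale, first group over second) in the susceptible N against H comparison, the 3 group comparisons and the 2 within-letter comparisons. Olig2 and Cspg5 stand at 2.69 and 1.70 for N over H and at -0.06 and 0.36 for susceptible N over resilient N, while Pdgfra stays positive in all 6 panels.

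Among the 21 pairs of members, Olig2 and Cspg5 varied together most, with a Pearson r of 0.86 over 12 libraries. Because both differ by letter, r was also taken within letters, and it was 0.80 over the 6 N libraries and 0.77 over the 6 H libraries. Only 1 other pair had an r above 0.5, Olig1 and Cspg5 at 0.54. Both of these genes were lowest in non-defeated replicate 4, at 73.3 and 46.3 CPM. Olig2 and Sox10 had an r of -0.47. These are descriptions over libraries that share their amplification kit and differ in depth.

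**Figure D3:**
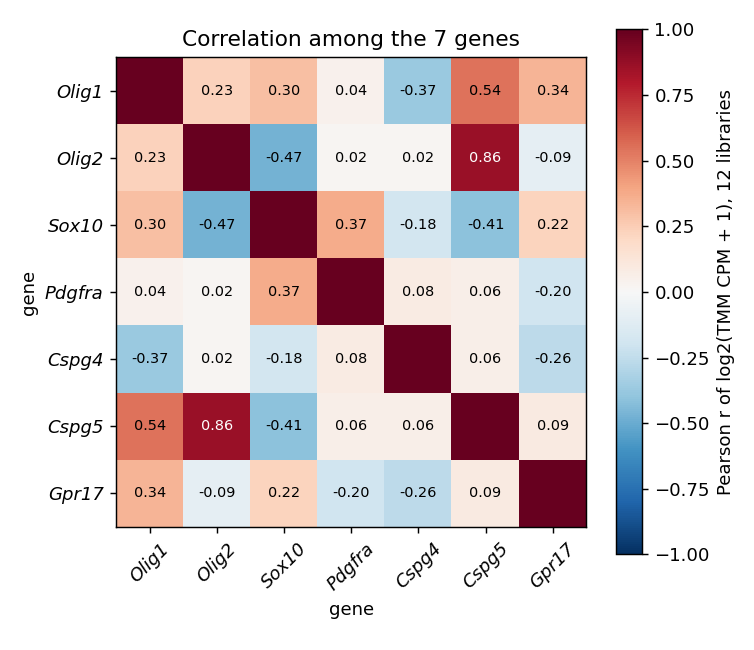
Pearson r between each pair of the 7 genes over the 12 libraries, on log2(TMM CPM + 1). Olig2 with Cspg5 is the darkest cell off the diagonal at 0.86, and Pdgfra is within 0.37 of 0 with every other member.

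Olig1 and Olig2 lie 41.1 kb apart on chromosome 16 (GRCm38, Olig2 at 91225457 to 91228677 and Olig1 at 91269772 to 91271933, both on the + strand), yet their levels had an r of only 0.23. Olig1, the paralogue that promotes maturation of the lineage, was measured at 364.2, 390.5, 473.8 and 313.3 CPM in susceptible replicates 1 to 4 and at 263.5, 336.8, 362.5 and 316.9 CPM in resilient replicates 1 to 4. Non-defeated replicates 1 to 4 held 456.5, 471.9, 363.2 and 73.3 CPM. The groups overlapped, and non-defeated replicate 4 was far below the other 11 libraries. Without it the log2 fold change of Olig1 in susceptible over non-defeated mice was -0.18 ± 0.17, against 0.47 ± 0.44 with it, and in resilient over non-defeated mice it was -0.44 ± 0.17 against 0.20 ± 0.44, with a limma adjusted p of 0.861 for the last. Without all 3 libraries of lowest correlation these were -0.28 ± 0.18 and -0.55 ± 0.19. In that library the 16 mature oligodendrocyte markers summed to 11607 CPM and the 18 other precursor markers to 533 CPM, where the other libraries held 11024 to 19276 CPM and 509 to 624 CPM. That library was the lowest of 12 for lineage transcription factors at 382 CPM, newly formed oligodendrocyte markers at 862 CPM, mural markers at 43.6 CPM, astrocyte markers at 2944 CPM and microglia markers at 206 CPM, and the highest for thalamus markers at 3273 CPM. Their part in its Olig1 value was not tested. Per length, the ratio of Olig1 to Olig2 ran from 6.76 to 52.9 in the N libraries and from 26.9 to 177 in the H libraries.

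**Figure D4:**
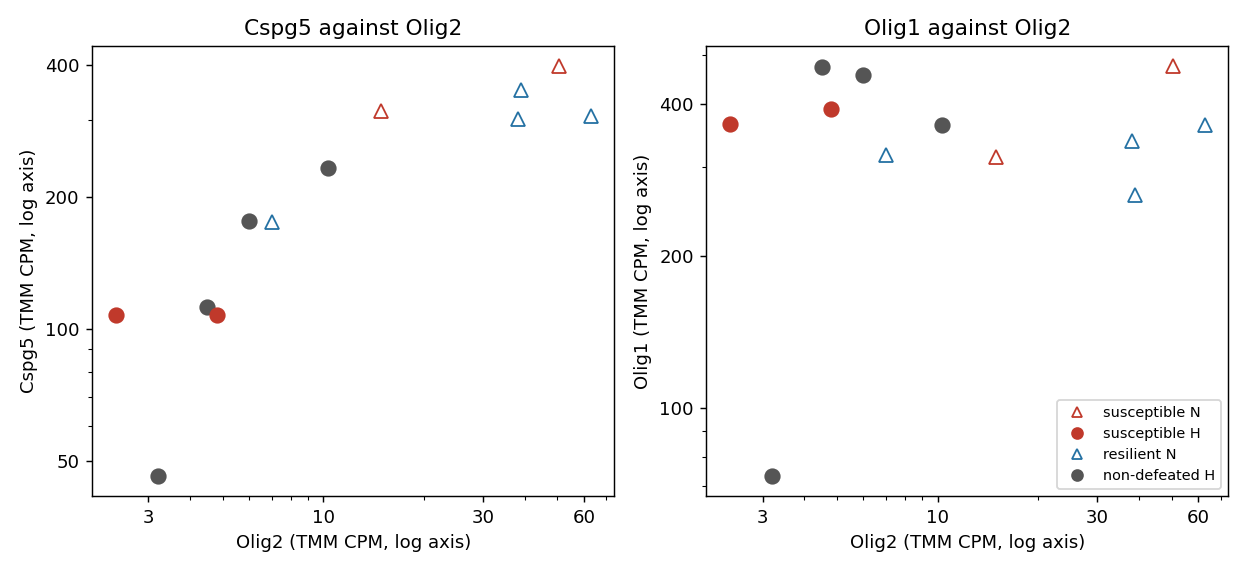
Cspg5 (left) and Olig1 (right) against Olig2 in each library, all in TMM CPM on log axes, coloured by group with open triangles for title letter N and filled circles for H. Cspg5 is higher in libraries where Olig2 is higher (r 0.86), whereas Olig1 stays between 263.5 and 473.8 CPM in 11 libraries and drops to 73.3 CPM in non-defeated replicate 4.

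Sox10, the HMG-box factor that drives myelin genes together with Olig2, had the smallest spread over libraries. The gene (ENSMUSG00000033006) spans chromosome 15, 79154908 to 79165240, on the - strand. It had 97.2, 103.1, 99.4 and 79.0 CPM in susceptible replicates 1 to 4, 53.7, 82.3, 86.5 and 104.7 CPM in resilient replicates 1 to 4, and 120.3, 109.5, 69.3 and 87.3 CPM in non-defeated replicates 1 to 4. All 3 groups and both letters overlapped. Group differences stayed within 0.25 on the log2 scale, the lowest being -0.25 ± 0.22 for resilient over non-defeated mice with a limma adjusted p of 0.934. That value ran from -0.40 to -0.06 when each library was left out in turn. Without the 3 libraries of lowest correlation it was -0.66 ± 0.22, with an unadjusted p of 0.0134 and a limma adjusted p of 0.295.

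Gpr17, a G protein-coupled receptor that peaks in committed precursors and is lost on maturation, had no group that stood apart. It had 36.8, 28.2, 37.9 and 20.7 CPM in susceptible replicates 1 to 4, 28.2, 19.1, 32.5 and 35.7 CPM in resilient replicates 1 to 4, and 41.7, 23.2, 40.5 and 23.9 CPM in non-defeated replicates 1 to 4. Each group held both high and low libraries, and all groups overlapped. The log2 fold changes were -0.05 ± 0.29 for susceptible over non-defeated, -0.14 ± 0.29 for resilient over non-defeated and 0.09 ± 0.29 for susceptible over resilient mice, and -0.05 ± 0.34, -0.25 ± 0.36 and 0.21 ± 0.30 without the 3 libraries. Gpr17 lies within Lims2 on the opposite strand over 6640 bases of gene span, and overlap of their exons was not measured. Whether counting used strand is not given in the sources used here, so reads of the 2 genes may be mixed. Lims2 ran from 16.3 to 29.3 CPM over the 12 libraries and its r with Gpr17 was -0.10. Cspg5 likewise overlaps Gm43622 on the opposite strand over 2019 bases, but Gm43622 never exceeded 1.59 CPM.

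Cspg4, the NG2 proteoglycan, was the scarcest member and the most variable. The gene (ENSMUSG00000032911) spans chromosome 9, 56865033 to 56899870, on the + strand. It had 0.778, 3.1, 2.3 and 16.3 CPM in susceptible replicates 1 to 4, 9.3, 2.7, 3.4 and 25.8 CPM in resilient replicates 1 to 4, and 3.9, 3.4, 2.5 and 8.1 CPM in non-defeated replicates 1 to 4. One susceptible and one resilient library stood well above the rest, and the groups overlapped. The log2 fold change was -0.17 ± 0.71 for susceptible over non-defeated and 0.68 ± 0.71 for resilient over non-defeated mice, with limma adjusted p of 0.998 and 0.943. Neither direction held under every alternative: the first was 0.33 by edgeR and 0.34 by DESeq2, and the second was -0.81 ± 1.16 with the letter as a term, 0.25 ± 0.81 without the 3 libraries and 0.10 ± 0.67 without resilient replicate 4. Within the susceptible group the log2 fold change of N over H was 1.49 ± 0.95 with a limma adjusted p of 1, and it was 0.29 ± 1.06 without susceptible replicate 4.

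Mural cells also make Cspg4, and all 8 mural markers were measured. Their sum was 53 to 71 CPM in susceptible, 50.2 to 223 CPM in resilient and 43.6 to 58.1 CPM in non-defeated mice. Resilient replicate 4, with the highest Cspg4, held the 223 CPM, and its 6 endothelial markers summed to 344 CPM against 29.8 to 83.5 CPM in the other 11 libraries. Susceptible replicate 4, at 16.3 CPM of Cspg4, had a mural sum of 53 CPM. Pdgfrb, Abcc9 and Anpep had 0 reads in at least 1 library. The part of mural cells in the Cspg4 values was not tested. In the authors' deposited table the correlation of CPM with the interaction ratio was 0.5038 for Cspg4 and -0.4322 for Pdgfra, the highest and lowest of the 7, with p of 0.09492 and 0.1606.

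The wider precursor signature was not tested as a set, and 0 of its genes passed adjustment by limma in any comparison. All 18 other precursor markers were tested, and 13 had a positive log2 fold change in susceptible over non-defeated mice, with a median of 0.12 against 0.01 over all genes. Their summed level was 565 to 613 CPM in susceptible, 509 to 624 CPM in resilient and 521 to 569 CPM in non-defeated mice. In the H libraries, 15 of the 18 were positive in susceptible over non-defeated mice, with a median of 0.23 against 0.01 over all genes. In the N libraries, 6 of the 18 were positive in susceptible over resilient mice, with a median of -0.09 against -0.01. Pcdh15, a protocadherin, averaged 13.8 ± 2.62 CPM in susceptible, 19.8 ± 17.4 CPM in resilient and 7.85 ± 11.6 CPM in non-defeated mice. Megf11, a membrane protein with EGF-like repeats, averaged 85.2 ± 22.0 CPM in susceptible and 42.7 ± 14.1 CPM in resilient mice, a log2 fold change of 1.01 ± 0.43 with a limma adjusted p of 1. Emid1 had a log2 fold change of -1.54 ± 0.68 in susceptible over non-defeated mice, with a limma adjusted p of 0.998. Within the susceptible group, 6 of the 18 had a positive and 12 a negative log2 fold change of N over H, with a median of -0.08, and their sum was 565 to 584 CPM in N and 590 to 613 CPM in H libraries. C1ql1, a secreted C1q-family protein, had the value farthest from 0 there, 4.0 ± 0.89, with an unadjusted p of 0.000602 and a limma adjusted p of 0.384.

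Later and upstream stages of the lineage were read from further lists. Of 12 lineage transcription factors, 9 had a positive log2 fold change in susceptible over non-defeated mice and 0 passed. Sox8, a relative of Sox10, averaged 39.9 ± 17.1 CPM in resilient and 64.5 ± 6.83 CPM in non-defeated mice, a log2 fold change of -0.79 ± 0.28 with a limma adjusted p of 0.572. Id4, an inhibitor of basic helix-loop-helix factors, averaged 84.0 ± 67.1 CPM in resilient and 17.1 ± 3.14 CPM in non-defeated mice, a log2 fold change of 1.77 ± 0.64 with a limma adjusted p of 0.577. Among 11 markers of newly formed oligodendrocytes, 4 were positive in susceptible over non-defeated mice and 0 passed. Rras2, a small GTPase, had a log2 fold change of 1.01 ± 0.47 there and Bmp4, a secreted signal of the lineage, -1.17 ± 0.59. Of 16 mature oligodendrocyte markers, 14 were positive in susceptible over non-defeated mice, with a median of 0.17 against 0.01 over all genes, and 0 passed. Mbp, a major protein of compact myelin, averaged 7212 ± 1388 CPM in susceptible and 5141 ± 1015 CPM in non-defeated mice, a log2 fold change of 0.49 ± 0.18 with a limma adjusted p of 0.998. Cldn11, the tight junction protein of myelin, averaged 22.9 ± 3.67 CPM in resilient and 38.5 ± 6.15 CPM in non-defeated mice, a log2 fold change of -0.73 ± 0.21 with a limma adjusted p of 0.521.

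Genes whose pattern over the 12 libraries was most like each member were picked by Pearson r among 14701 genes averaging at least 1 CPM. For Olig2 they were Kctd2, Hcn2 and Dusp7, with r of 0.992, 0.986 and 0.983, and for Cspg5 they were Timp2, Rnf11 and Lamp1, with r of 0.986, 0.981 and 0.981. The nearest genes to Olig1 were E130309D02Rik, Tob1 and Cdh22, with r of 0.968, 0.952 and 0.947. Olig1 held 73.3 CPM in non-defeated replicate 4 and 263.5 to 473.8 CPM in the others. These r therefore rest largely on that library, and r without it was not taken. The other members had looser neighbours: Ddr1 reached 0.916 with Sox10, Zmat1 0.904 with Pdgfra, Mfng 0.877 with Gpr17 and Larp1 0.815 with Cspg4. Each r was picked from the top of 14701 over only 12 libraries, so it runs high by selection. How high selection alone would take it was not tested.

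GC content of the longest annotated transcript was 61.8% for Sox10, 61.1% for Olig1, 59.2% for Cspg4, 58.5% for Olig2, 53.4% for Gpr17, 51.3% for Cspg5 and 48.1% for Pdgfra, where the median of tested genes was 49.6%. Across all genes split into 5 equal classes of GC content, the median log2 fold change of susceptible N over H libraries ran from -0.05 in the lowest class to 0.03 in the highest. Olig2 lay above 92.2% of tested genes in GC content, Sox10 above 98%, Olig1 above 97.3%, Cspg4 above 94% and Cspg5 above 59.6%, and outside the members C1ql1, at 65.8%, above 99.7%. The genes most like Olig2, Hcn2, Dusp7 and Kctd2, had 65.4%, 57.6% and 56.2%. Those most like Cspg5, Timp2, Lamp1 and Rnf11, had 53.7%, 51.6% and 42.6%. Id4, with a log2 fold change of N over H of 1.06 in the susceptible group, had 42.6%, above 15.6% of tested genes. The part of GC content in the differences by letter was not tested.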

How the data were processed

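Reads of 12 lateral habenula libraries were counted on GRCm38 (mm10) genes with featureCounts and tested with edgeR, per the submitters' processing notes. No aligner and no strand setting is given in the sources used here. The deposited columns are headed read counts, but per the values deposited they hold CPM plus a constant of 0.006078. After its subtraction 100% of values were whole reads within 0.001 read. The authors also deposited log2 ratios, a likelihood ratio score, p-values and FDR over the 3 groups, and correlations with an interaction ratio. RPKM here divides CPM by the exon length of GENCODE M21, matched for 17402 of 17416 genes.

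limma-trend (limma 3.58.1, R 4.3.3, robust) was run on log2(CPM + 1), with TMM scaling by edgeR 4.0.16, for genes passing filterByExpr (minimum count 10), with Benjamini-Hochberg adjustment over 17111 genes and a threshold of 0.05. One model held the 3 groups, another the 4 combinations of group and title letter; both used all 12 libraries. Counts by edgeR's quasi-likelihood test and DESeq2 1.42.0 on recovered reads, other scalings and filters, a replicate block and leaving out libraries were alternatives. The procedure was tested on simulated data. Replicates of a group differed far beyond counting noise, at a chi-square per degree of freedom of at least 73.3. Reads carry no molecular identifiers. The 7 genes and all lists were chosen with earlier results of these data known. Other genes were named by a rule: up to 4 per list with the smallest p over the group comparisons, and the 3 most alike per member. C1ql1 and Id4 came by that rule.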

Additional observations from a re-analysis of the deposited data

Results flagged for a closer look

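Pdgfra in susceptible replicate 2, at 22.6 CPM, stood apart from the other 3 susceptible libraries, which held 34.8 to 36.2 CPM. Cspg4 in susceptible replicate 4, at 16.3 CPM, stood apart from the other 3 susceptible libraries, which held 0.778 to 3.1 CPM. In both, the gap to the nearest library divided by the range of the group exceeded Dixon's critical value of 0.829 for 4 samples. The test was applied to 21 combinations of gene and group, and chance flags about 1 in 20.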

How the results depend on the processing

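Of 504 leave-one-out values of the 7 genes, 36 changed sign and 468 kept direction and call, and of the 420 values under the other alternatives, 24 changed sign, 394 kept both and 2 passed the adjusted threshold that they had missed. These 2 were Olig2 for N over H by DESeq2 (adjusted p 0.0179, range over alternatives 0.0179 to 1) and Cspg5 for N over H without the 3 libraries of lowest correlation (0.00709, range 0.0071 to 1), an alternative chosen after seeing the data. Pdgfra kept its sign in all 6 comparisons under every alternative run. Where no cause is given below, the cause was not tested.

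With the title letter as a term, susceptible over non-defeated mice gave -0.57 for Olig2, 0.08 for Sox10, -0.17 for Cspg5 and 0.05 for Gpr17. Susceptible over resilient mice gave 0.36 for Cspg5 and -0.0049 for Gpr17. Both sets repeat the values of susceptible H over non-defeated H and of susceptible N over resilient N. Resilient over non-defeated mice gave -0.50 for Olig2, -0.81 for Cspg4, -0.53 for Cspg5 and 0.05 for Gpr17. These take the letter difference from the susceptible libraries alone. Without the 3 libraries Olig1 gave -0.28 in susceptible over non-defeated, -0.55 in resilient over non-defeated and -0.30 in susceptible H over non-defeated H. There Sox10 gave -0.20 in susceptible H over non-defeated H, and in susceptible N over resilient N Cspg4 gave 0.47 and Gpr17 0.11. edgeR and DESeq2 gave 0.33 and 0.34 for Cspg4 in susceptible over non-defeated, -0.09 and -0.11 for Olig1 in resilient over non-defeated, and 0.02 and 0.03 for Gpr17 in susceptible N over resilient N, where RLE size factors gave 0.0031. Replicate numbers did not pair the libraries, since deviations of same-numbered libraries correlated at -0.194 to 0.127. With the number as a replicate block Olig2 in susceptible N over resilient N was 0.10, Olig2 for N over H was 3.02 with an adjusted p of 0.223, and 0 genes passed in any comparison.

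Leaving out 1 library at a time, susceptible over non-defeated ran from -0.18 to 0.72 for Olig1, -0.82 to 0.28 for Cspg4, -0.15 to 0.11 for Sox10 and -0.19 to 0.12 for Gpr17. Resilient over non-defeated ran from -0.44 to 0.46 for Olig1 and -0.28 to 0.04 for Gpr17, and susceptible over resilient from -0.09 to 0.26 for Gpr17. Susceptible N over H ran from -0.26 to 0.31 for Olig1 and -0.60 to 0.21 for Gpr17. Susceptible H over non-defeated H ran from -0.19 to 0.71 for Olig1, -0.07 to 0.20 for Sox10, -0.63 to 0.14 for Cspg5 and -0.14 to 0.23 for Gpr17. Susceptible N over resilient N ran from -0.01 to 0.56 for Olig1, -0.89 to 0.77 for Olig2, -0.04 to 0.31 for Sox10, -1.30 to 1.09 for Cspg4 and -0.41 to 0.40 for Gpr17.

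Counts of genes passing also moved. DESeq2 called 23 genes in susceptible over non-defeated, 91 in resilient over non-defeated, 38 in susceptible over resilient, 193 in susceptible N over H, 57 in susceptible H over non-defeated H and 97 in susceptible N over resilient N, where limma called 0, 1, 8, 0, 0 and 9. Resilient over non-defeated gave 2 with RLE size factors, no filter or a mean of at least 1 CPM, and 0 without the robust step, with the block, by edgeR, with only the groups compared, with the letter or without the 3 libraries. Susceptible over resilient gave 1 with a pseudocount of 0.25, 0 without the robust step, with the block, by edgeR or with only the groups compared, and 2 without the 3 libraries. Susceptible N over resilient N gave 14 with a mean of at least 1 CPM, 0 without the robust step or with the block, and 18 without the 3 libraries, and susceptible N over H gave 96 without them. Leaving out 1 library gave 0 to 9 in resilient over non-defeated, 0 to 10 in susceptible over resilient and 0 to 15 in susceptible N over resilient N. Within-letter fits rest on 2 susceptible libraries each, and 1 when one is left out, which is then assumed to vary like the others. Cspg4 had 34 reads in susceptible replicate 1.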
